A study of Mus musculus with 6 samples.

Results

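Semaphorins, plexins and neuropilins were followed in 6 RNA sequencing libraries of mouse cerebral cortex. The 31 genes were chosen by name (20 semaphorins, 9 plexins and 2 neuropilins), and each matched 1 of the 53379 gene identifiers in the deposited counts. Per the labels, 3 libraries (replicates 5, 6 and 7) carried the genotype GTF2ird1-/-, meaning both copies of the transcription factor gene Gtf2ird1 were mutated, and 3 (replicates 1, 3 and 4) were wild type. All were from brains of C57BL/6 mice aged 2 months, and the sources used here do not state the mutated part of the gene, the sex of the animals or any pooling. The series is described as Gad2+ neurons, with no account there of how the cells were obtained. Nothing in the labels says whether the libraries of a group came from different mice, so the p-values speak only of the spread among these libraries, which may be technical.

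Semaphorins are secreted or membrane-bound guidance cues that share a sema domain. Plexins are their receptors and pass the signal to small GTPases and the cytoskeleton, and neuropilins are co-receptors that most secreted class 3 semaphorins need to reach class A plexins. In the developing forebrain these genes steer growing axons and migrating interneurons, and several, among them Sema4d and Plxna1, are also known from cells of the immune system.

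Gene counts summed to between 13627501 and 30544144 per library, and the upper limit behind a count of 0, taken as 3 reads, was between 0.0937 and 0.272 CPM. CPM are counts scaled to each library's total after correction by TMM, the trimmed mean of M-values. Markers of microglia, the macrophages of the brain, went against the label of Gad2+ neurons. The 8 microglia markers summed to between 24080 and 30160 CPM in the libraries labelled Gtf2ird1-/- and between 22980 and 37190 CPM in wild type. The 5 GABAergic neuron markers, Gad1 and Gad2 among them, summed to between 148 and 295 CPM in the libraries labelled Gtf2ird1-/- and between 78.6 and 302 CPM in wild type. The 8 astrocyte markers ranged from 3322 to 5888 CPM in the libraries labelled Gtf2ird1-/- and from 273 to 3373 CPM in wild type. Of the 8, 6 did not overlap between groups, against 13% of all tested genes. In each of the 6, replicate 6 lay only slightly above wild type replicate 1, as at 95.86 against 94.85 CPM for Gja1 and 58.0 against 54.7 CPM for Aqp4. The 8 genes mark the same cell type and are not independent of each other. Immature neuron markers (6 genes with Dcx, which encodes a microtubule protein of migrating neurons) ranged from 691 to 1327 CPM in the libraries labelled Gtf2ird1-/- and from 334 to 1491 CPM in wild type. Markers of endothelium (6 genes), mature neurons (4), mural cells (4) and oligodendrocyte precursors (5) each summed to at most 162 CPM in any library. Of these marker genes, the mural cell gene Kcnj8 alone was at 0 reads in a library, wild type replicate 3. Gtf2ird1 itself (chromosome 5, 134357656 to 134456716) had 49.7, 40.6 and 48.8 CPM in the libraries labelled Gtf2ird1-/-, against 23.4, 31.5 and 52.7 CPM in wild type. An exact permutation test of its CPM, two-sided, gave p = 0.4, where 0.1 is the smallest that 3 against 3 allows, and the log2 fold change was 0.37 ± 0.29 SE (adjusted p = 0.703, edgeR). A count over all exons cannot show which part was mutated, so it does not check the labels.

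The upstream sequences of 5 of these genes are shown because these genes carry the 2 patterns described below. Plxna2, Plxna3 and Sema6c ordered the 6 libraries exactly as Dcx did. Plxnb2 was the most abundant receptor, and Sema4b ranked number 3 among the ligands, after Sema4d and Sema4c, whose sequences are not shown. Each run holds the 250 bases before a RefSeq transcription start in GRCm38.p6, read 5′ to 3′ on the strand of the gene, with motif matches in capitals. Sema6c, Plxnb2 and Sema4b each have a further start whose sequence is not shown. The sequences not shown held matches for Plxnb2 and Sema4b and none for Sema6c.

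Plxna2 (chr1:194619579-194619828, plus strand): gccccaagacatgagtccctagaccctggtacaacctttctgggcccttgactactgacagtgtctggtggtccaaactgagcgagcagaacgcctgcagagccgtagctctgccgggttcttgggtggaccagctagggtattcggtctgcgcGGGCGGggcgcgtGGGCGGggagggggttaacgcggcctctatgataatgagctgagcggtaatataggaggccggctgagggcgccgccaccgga

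Plxna3 (chrX:74328816-74329065, plus strand): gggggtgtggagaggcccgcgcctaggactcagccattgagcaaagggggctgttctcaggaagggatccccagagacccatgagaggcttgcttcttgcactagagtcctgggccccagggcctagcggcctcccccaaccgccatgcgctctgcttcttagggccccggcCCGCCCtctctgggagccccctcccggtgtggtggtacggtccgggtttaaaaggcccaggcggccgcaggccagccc

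Sema6c (chr3:95160170-95160419, plus strand): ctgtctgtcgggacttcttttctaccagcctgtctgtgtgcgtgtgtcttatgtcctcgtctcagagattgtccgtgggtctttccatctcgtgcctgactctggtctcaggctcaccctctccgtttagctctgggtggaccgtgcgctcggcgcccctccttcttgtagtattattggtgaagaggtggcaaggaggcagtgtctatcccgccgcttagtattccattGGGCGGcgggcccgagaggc

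Plxnb2 (chr15:89180789-89181038, minus strand): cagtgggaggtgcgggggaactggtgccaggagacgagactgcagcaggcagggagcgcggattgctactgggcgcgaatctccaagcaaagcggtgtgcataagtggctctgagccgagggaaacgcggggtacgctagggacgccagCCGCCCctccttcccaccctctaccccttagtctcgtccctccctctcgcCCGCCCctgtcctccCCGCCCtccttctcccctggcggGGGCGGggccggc

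Sema4b (chr7:80186620-80186869, plus strand): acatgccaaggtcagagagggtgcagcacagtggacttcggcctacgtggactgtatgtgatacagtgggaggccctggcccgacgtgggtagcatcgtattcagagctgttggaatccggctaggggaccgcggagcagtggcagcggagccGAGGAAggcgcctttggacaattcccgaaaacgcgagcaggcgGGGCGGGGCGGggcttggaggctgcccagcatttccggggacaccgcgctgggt

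The capitals mark the GC box GGGCGG or the core GAGGAA of PU.1, the lineage factor of macrophages, on either strand. The 26 genes with an entry gave 37 upstream windows. The GC box stood in 27 of the 37 windows, or 73%, against 32.7% of all 32851 windows of the same length. Overlapping matches of the box were counted separately, and the 5 windows shown were rich in G and C, at 57.6% to 69.2% of their bases. GAGGAA stood in 12 windows of 10 genes, or 32.4%, against 23.3% of all windows. Sema4b was among these 10 genes, while Sema4c and Sema4d, the more abundant ligands, were not. The GGATTA core reported for GTF2IRD1 itself stood in 0 of the 37 windows, against 6.25% of all, and the homeodomain core TAATTA in 0, against 4.84%. No match says only that these letters are not in these windows.

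Levels are given next, as TMM-scaled CPM and per kilobase (kb) of exon where genes are compared. Triplets of values run from replicate 5 to 7 in the libraries labelled Gtf2ird1-/- and through replicates 1, 3 and 4 in wild type. All 31 genes passed the filter on low counts. Of them, 8 had a mean of at least 10 CPM per kb over the 6 libraries, 15 lay between 1 and 10, and 8 were under 1. The median of all 17221 tested genes was 4.20 CPM per kb, and 16 of the 31 genes lay above it.

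**Figure D1:**
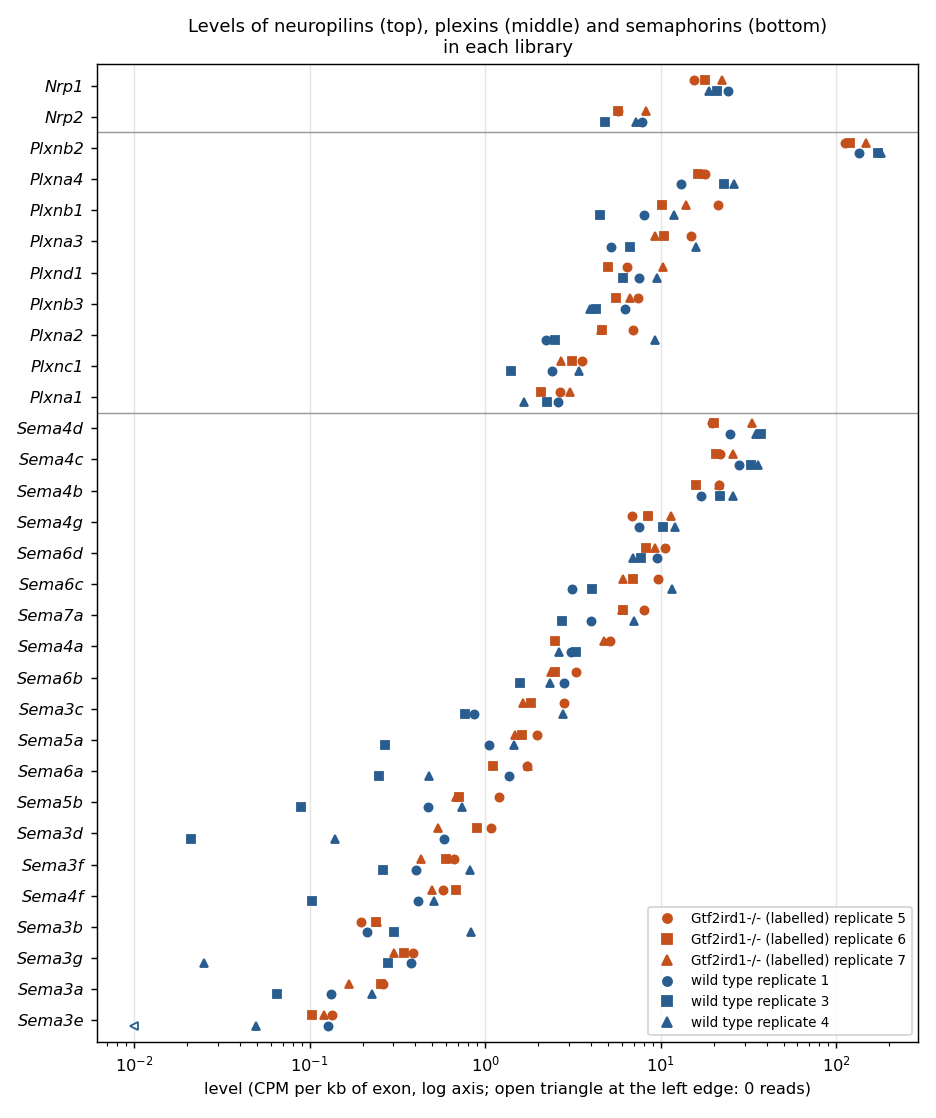
Level of each of the 31 genes in each library, in CPM per kb of exon on a log axis, with the 3 libraries labelled Gtf2ird1-/- in orange above the 3 wild type libraries in blue. Plxnb2 stands at the right in all 6 libraries, and most class 3 semaphorins lie at the left, with Sema3e at 0 reads in wild type replicate 3.

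Plexin B2 was the most abundant receptor. Plxnb2, a receptor of class 4 semaphorins that is expressed by macrophages and neural progenitors alike, averaged 144 CPM per kb and made up 69.2% of the plexin total. Its lowest library, at 112 CPM per kb, was above the highest library of any other of the 31 genes, at 37.2 CPM per kb. In CPM, Plxnb2 (chromosome 15, 89155549 to 89180788) had 861, 918 and 1143 CPM in the libraries labelled Gtf2ird1-/-, against 1033, 1335 and 1387 CPM in wild type. The groups overlapped, since replicate 7 lay above wild type replicate 1. Its log2 fold change was -0.36 ± 0.20 SE (adjusted p = 0.638, edgeR).

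Plxna4, a receptor for class 6 semaphorins and, with neuropilins, for class 3, was next among plexins at 19.0 CPM per kb. It had 253, 229.6 and 249 CPM in the libraries labelled Gtf2ird1-/-, against 185, 324 and 371 CPM in wild type (chromosome 6, 32144268 to 32588192). Wild type held both the lowest and the 2 highest libraries, so that the group labelled Gtf2ird1-/- lay inside the wild type range. The log2 fold change was -0.27 ± 0.25 SE (adjusted p = 0.745, edgeR).

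Plxnb1, the classical receptor of Sema4d, had 203, 97.5 and 133 CPM in the libraries labelled Gtf2ird1-/-, against 77.2, 43.0 and 114 CPM in wild type (chromosome 9, 109095389 to 109119917). Replicate 5 was the highest library and wild type replicate 3 the lowest, and the groups overlapped because wild type replicate 4 exceeded replicate 6. The means were 145 ± 53.7 CPM in the libraries labelled Gtf2ird1-/- and 77.9 ± 35.3 CPM in wild type (SD, n = 3 each), and the log2 fold change of 0.89 ± 0.39 SE (adjusted p = 0.637, edgeR) did not pass, with a 95% interval of the fold from 0.990 to 3.48. Plxnb1 had the second smallest p of the 31 genes.

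Plxnd1, which binds Sema3e without a neuropilin, had 46.6, 36.7 and 75.4 CPM in the libraries labelled Gtf2ird1-/-, against 54.6, 44.3 and 69.2 CPM in wild type. Replicates 7 and 6 were its highest and lowest libraries, so the group labelled Gtf2ird1-/- spanned the whole range. Plxnb3, a receptor of Sema5a known from oligodendrocytes, had 48.3, 36.0 and 43.6 CPM in the libraries labelled Gtf2ird1-/-, against 40.3, 27.6 and 25.6 CPM in wild type. Wild type replicates 3 and 4 were lowest, while wild type replicate 1 lay within the other group, and the log2 fold change was 0.45 ± 0.21 SE (adjusted p = 0.637, edgeR). The 7 oligodendrocyte markers summed to 2385, 2004 and 2416 CPM in the libraries labelled Gtf2ird1-/-, against 2398, 548 and 165 CPM in wild type. They were lowest in the same 2 libraries, as were the summed astrocyte, endothelial, mural, oligodendrocyte precursor and mature neuron markers. The astrocyte and endothelial sums, unlike the oligodendrocyte sum, stood in the full library order of Plxnb3. Of the astrocyte markers, only Slc1a2 and Gfap had this order, and no single endothelial marker had it. Slco1c1 gave 112.7 of the 161.9 CPM of the endothelial sum in replicate 5, where Pecam1 was at its lowest, at 28.2 CPM. These comparisons were not among those set for library order, and the share of all tested genes in this order is not given here. The part of any of these cell types in the values of Plxnb3 was not tested. Plxna1, which in mouse cells pairs with the microglial receptor Trem2, was the least abundant plexin at 2.38 CPM per kb and had 24.0, 18.8 and 27.6 CPM in the libraries labelled Gtf2ird1-/-, against 23.6, 20.2 and 15.1 CPM in wild type. Its exons share 10.7% of their bases with the antisense gene Gm26811, and the sources used here do not state the strand setting of the counting, though Gm26811 itself had 0 reads in all 6 libraries. Wild type replicate 4 was its lowest library and the groups overlapped.

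Nrp1 exceeded Nrp2 in all 6 libraries, by between 2.59 and 4.32 times per kb. Nrp1, a co-receptor of Sema3a that also binds VEGF, averaged 19.9 CPM per kb and had 151, 174 and 217 CPM in the libraries labelled Gtf2ird1-/-, against 237, 204 and 183 CPM in wild type (chromosome 8, 128358604 to 128503363). Nrp2, the co-receptor preferred by Sema3f, averaged 6.57 CPM per kb and had 67.5, 67.4 and 96.9 CPM in the libraries labelled Gtf2ird1-/-, against 92.3, 57.1 and 85.7 CPM in wild type. The groups overlapped for both, with replicate 5 lowest for Nrp1 and wild type replicate 3 lowest for Nrp2. For Nrp1 the log2 fold change was -0.21 ± 0.18 SE (adjusted p = 0.729, edgeR) and the 95% interval of the fold 0.649 to 1.16. For Nrp2 these were -0.02 ± 0.23 SE (adjusted p = 0.980, edgeR) and 0.680 to 1.43.

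Among the ligands, the membrane-bound class 4 semaphorins dominated. Their 6 genes summed to 74.9, 68.5 and 96.7 CPM per kb in the libraries labelled Gtf2ird1-/-, against 80.7, 105 and 111 CPM per kb in wild type, while the 7 secreted class 3 genes summed to 5.54, 4.25 and 3.45 CPM per kb in the libraries labelled Gtf2ird1-/-, against 2.69, 1.69 and 4.85 CPM per kb in wild type. Sema4d, which is shed by immune cells and activates class B plexins, had 149, 155 and 252 CPM in the libraries labelled Gtf2ird1-/-, against 191, 286 and 267 CPM in wild type (chromosome 13, 51685529 to 51793747). Replicates 5 and 6 were lowest and replicate 7 lay among the wild type libraries. Sema4c, another ligand of Plxnb2, was above Sema4d per kb in 4 of the 6 libraries, and their means of 28.2 CPM per kb for Sema4d and 27.4 for Sema4c differed by less than the spread between libraries.

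Sema4c (chromosome 1, 36548639 to 36558349) had 99.3, 95.1 and 118 CPM in the libraries labelled Gtf2ird1-/-, against 129, 151 and 164 CPM in wild type. The highest of the libraries labelled Gtf2ird1-/- lay under the lowest wild type library. The means were 104 ± 12.4 CPM in the libraries labelled Gtf2ird1-/- and 148 ± 17.6 CPM in wild type (SD, n = 3 each), and the log2 fold change was -0.50 ± 0.15 SE (adjusted p = 0.637, edgeR), at an unadjusted p of 0.0112 and a 95% interval of the fold from 0.553 to 0.9001. The separation depended on the scaling, since with CPM over all gene counts replicate 7 exceeded wild type replicate 3. The exons of Sema4c share 7.27% of their bases with D430040D24Rik on the opposite strand, which averaged 6.35 CPM.

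Sema4b had 120.3, 89.7 and 121 CPM in the libraries labelled Gtf2ird1-/-, against 95.2, 123 and 145 CPM in wild type, and Sema4g, a further ligand of Plxnb2, had 59.3, 73.6 and 98.8 CPM in the libraries labelled Gtf2ird1-/-, against 64.7, 89.0 and 105 CPM in wild type. Both overlapped between groups, with wild type replicate 4 highest. Sema4a, known for its part in T cell responses, was the class 4 gene with the widest spread in the group labelled Gtf2ird1-/-, at 27.7, 13.5 and 25.5 CPM in the libraries labelled Gtf2ird1-/-, against 16.6, 17.7 and 14.3 CPM in wild type. Sema4f was the scarcest of the class, at 78, 60 and 84 reads in the libraries labelled Gtf2ird1-/-, against 63, 6 and 47 reads in wild type. The log2 fold changes of these 4 genes ran from -0.16 for Sema4g to 0.73 for Sema4f, and none passed.

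Class 6 semaphorins are transmembrane ligands of class A plexins. Sema6d, a ligand of Plxna1, was their most abundant member at 8.69 CPM per kb and had 111, 86.5 and 98.1 CPM in the libraries labelled Gtf2ird1-/-, against 101, 81.7 and 72.8 CPM in wild type. Replicate 5 was highest and wild type replicate 4 lowest, and the groups overlapped. Sema6a, the ligand of Plxna2 and Plxna4, had 15.2, 9.77 and 15.4 CPM in the libraries labelled Gtf2ird1-/-, against 11.9, 2.18 and 4.22 CPM in wild type. Wild type replicates 3 and 4 were the lowest libraries, and wild type replicate 1 lay above replicate 6. Its log2 fold change was 1.11 ± 0.57 SE (adjusted p = 0.637, edgeR), and it was 2.05 without wild type replicate 1 and 0.74 without wild type replicate 3. That of Sema6b was 0.28. Sema7a, which is anchored in the membrane by a lipid and binds Plxnc1 and integrins, had 26.4, 19.95 and 19.8 CPM in the libraries labelled Gtf2ird1-/-, against 13.1, 8.97 and 23.2 CPM in wild type. Wild type replicate 4 stood inside the other group and wild type replicates 1 and 3 under it.

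The class 5 genes carry thrombospondin repeats beside the sema domain. Sema5a had 37.0, 30.1 and 27.5 CPM in the libraries labelled Gtf2ird1-/-, against 19.6, 4.98 and 27.1 CPM in wild type (chromosome 15, 32244810 to 32696341). Every library labelled Gtf2ird1-/- exceeded every wild type library, by a narrow margin over wild type replicate 4, and the log2 fold change of 0.86 ± 0.51 SE (adjusted p = 0.652, edgeR) did not pass. Sema5b, at a lower level, had 8.44, 5.03 and 4.84 CPM in the libraries labelled Gtf2ird1-/-, against 3.34, 0.634 and 5.19 CPM in wild type. Its lowest library was wild type replicate 3, with 7 reads, and wild type replicate 4 exceeded replicates 6 and 7.

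The secreted class 3 genes stood low per kb of exon, and 4 of the 7 lay under the 10th percentile of tested genes on that scale. Sema3c was the most abundant of the class, at 1.78 CPM per kb and 47.5% of its total. It had 20.2, 13 and 11.8 CPM in the libraries labelled Gtf2ird1-/-, against 6.12, 5.44 and 19.7 CPM in wild type. Wild type replicate 4 stood close to replicate 5 at the top, and wild type replicates 1 and 3 were lowest. Sema3d had 236, 128 and 148 reads in the libraries labelled Gtf2ird1-/-, against 143, 2 and 21 reads in wild type. Its log2 fold change of 1.68 ± 0.85 SE (adjusted p = 0.637, edgeR) was the largest of the 31 genes, with a 95% interval of the fold from 0.809 to 12.7. Wild type replicate 1 reached the range of the other group, and wild type replicates 3 and 4 lay far under it. Without wild type replicate 1 the log2 fold change was 3.25, and without wild type replicate 3 it was 1.19. The 5 oligodendrocyte precursor markers summed to 162, 134 and 79.9 CPM in the libraries labelled Gtf2ird1-/-, against 102, 5.98 and 34.1 CPM in wild type. This was the library order of Sema3d in CPM. The comparison was not among those set for library order, and the share of all tested genes in this order is not given here. The part of these cells in the values of Sema3d was not tested. Sema3e had 32, 16 and 36 reads in the libraries labelled Gtf2ird1-/-, against 34, 0 and 8 reads in wild type, and Sema3g had 45, 26 and 44 reads in the libraries labelled Gtf2ird1-/-, against 49, 14 and 2 reads in wild type. Wild type replicate 1 lay within the other group for both, and wild type replicate 4 lay far under it. Leaving out 1 library gave log2 fold changes between 0.41 and 2.06 for Sema3e, and that of Sema3g was 0.05 without wild type replicate 4. Sema3a, the best studied repellent of the class, had 3.64, 3.54 and 2.31 CPM in the libraries labelled Gtf2ird1-/-, against 1.84, 0.906 and 3.14 CPM in wild type. Sema3f ranged from 1.36 to 4.28 CPM over the 6 libraries. Sema3b had the lowest log2 fold change of the 31 genes, -0.98 ± 0.56 SE (adjusted p = 0.646, edgeR), with 0.938, 1.14 and 1.16 CPM in the libraries labelled Gtf2ird1-/-, against 1.01, 1.45 and 3.94 CPM in wild type. Wild type replicate 4 alone was high for Sema3b, and without it the log2 fold change was -0.15.

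Of the class 3 genes, Sema3a, Sema3c, Sema3d and Sema3e, lie together on chromosome 5 within 5.35 Mb, 117 Mb from Gtf2ird1 on the same chromosome. Their log2 fold changes were 0.66, 0.52, 1.68 and 0.87. Wild type replicate 3 was the lowest library for each, as it was for 14 of the 31 genes, Sema3f on chromosome 9 among them. The other class 3 genes lie on chromosomes 9 (Sema3b and Sema3f) and 14 (Sema3g), with log2 fold changes of -0.98, 0.17 and 0.58.

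Across the list, the comparison of the libraries labelled Gtf2ird1-/- with wild type called no gene. With edgeR's quasi-likelihood test at an adjusted p of 0.05, 0 of 31 were called higher, against 0.00581% of the 17221 genes tested, and 0 of 31 lower, against 0%. The adjusted p-values ran from 0.637 to 0.980. At an unadjusted p under 0.05 there was 1 of 31 (Sema4c), or 3.23%, against 7.25% of all genes, while DESeq2 and limma-voom each had 4 of 31 at that level, or 12.9%, against 9.17% of all genes by DESeq2 and 8.52% by limma-voom. DESeq2 called 0 of 31, against 0.116% of all genes, and limma-voom 0 of 31, against 0.00581%. The groups did not overlap for 1 gene as higher (Sema5a), against 6.34% of all genes, and for 1 as lower (Sema4c), against 6.68%, which makes 6.45% of the 31 genes, against 13% of all.

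The median log2 fold change of the 31 genes was 0.28, with 21 above 0 and 10 below, while the median over all tested genes was -0.03, with 46.3% above 0. Semaphorins had 15 of 20 above 0, plexins 6 of 9 and neuropilins 0 of 2, and scaling by library totals alone put Sema4b, Plxnd1 and Nrp2 above 0 as well. That scaling moved the median of all genes to 0.11, with 65.6% above 0, and the median of the 31 genes to 0.42. Of the 10 below 0, 4 were class 4 semaphorins, Sema4b, Sema4c, Sema4d and Sema4g, and the others were Plxnb2, Plxna4, Plxnd1, Nrp1, Nrp2 and Sema3b. The 95% interval of the fold reached beyond a 2-fold difference for 19 of the 31 genes and stayed within it for 12, among them Nrp1, Nrp2, Plxnb2, Sema4b, Sema4c and Sema6d. Without wild type replicate 1, edgeR still called 0 of 31, against 1.85% of all genes, and 7 of 31, or 22.6%, had an unadjusted p under 0.05, against 18.6% of all genes. They were Plxna4, Plxnb3, Sema3b, Sema3d, Sema3e, Sema4c and Sema6a. Without wild type replicate 4 these were 11 of 31, or 35.5%, against 17.2%. The lowest adjusted p-values in any of these settings were 0.0516 for Sema6a and 0.0629 for Sema3d, both by edgeR without wild type replicate 1.

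**Figure D2:**
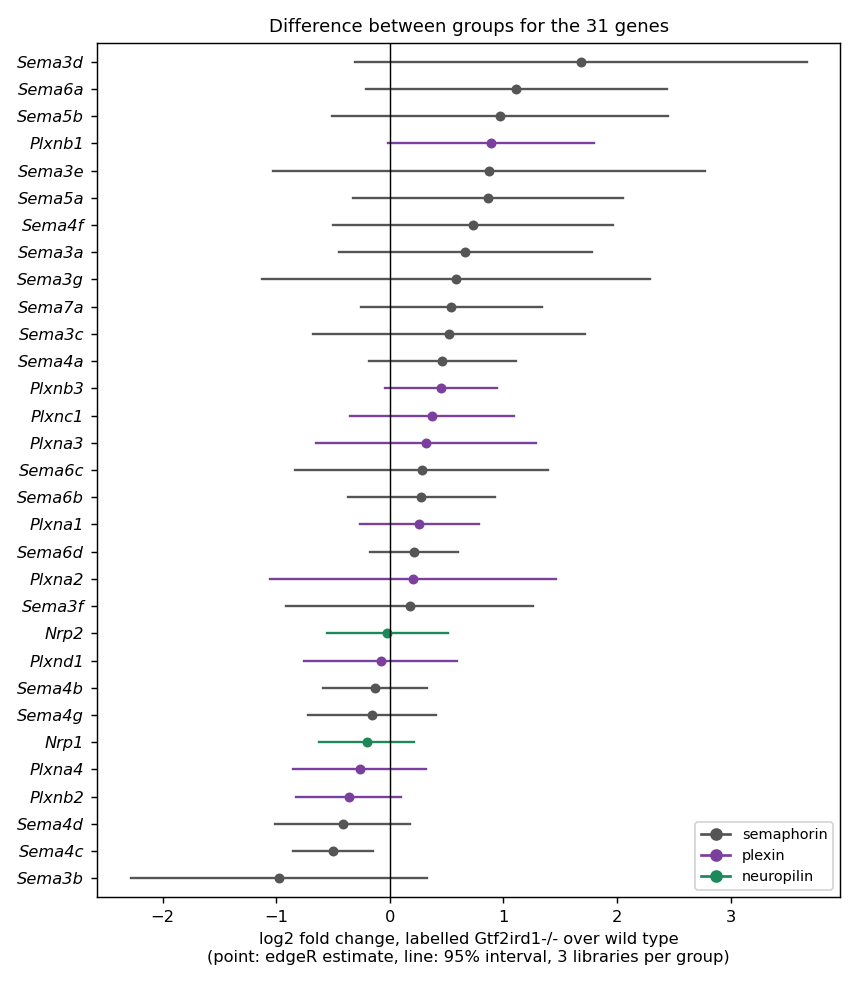
Log2 fold change of each of the 31 genes, labelled Gtf2ird1-/- over wild type, with the edgeR estimate as a point and its 95% interval as a line. Only the interval of Sema4c leaves out 0, before adjustment, and the widest intervals belong to Sema3d and Sema3e.

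Spread between libraries of 1 group was large beside these differences. The ratio of the highest to the lowest library had a median of 1.44 in the group labelled Gtf2ird1-/- over the 31 genes and of 2.52 in wild type over the 30 genes with reads in every library. On the log2 scale with 0.5 CPM added, the wild type range was the wider for 26 of 31 genes, or 83.9%, against 73.9% of all tested genes. Sema3d had a ratio of 2.00 in the libraries labelled Gtf2ird1-/- and 27.5 in wild type, and Sema3g 1.28 in the libraries labelled Gtf2ird1-/- and 14.9 in wild type. Plxna2, a receptor of Sema6a, had 1.53 in the libraries labelled Gtf2ird1-/- and 4.17 in wild type. Sema4c had 1.24 in the libraries labelled Gtf2ird1-/- and 1.27 in wild type, a narrow spread in both groups. Wild type replicate 3 was the lowest library for 14 of 31 genes, or 45.2%, against 20.6% of all genes, and replicate 5 the highest for 14, against 19.9%. Wild type replicate 3 was also the library with the fewest gene counts, and 18.6% of them fell on ribosomal RNA genes. The part of that library's composition in these values was not tested.

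**Figure D3:**
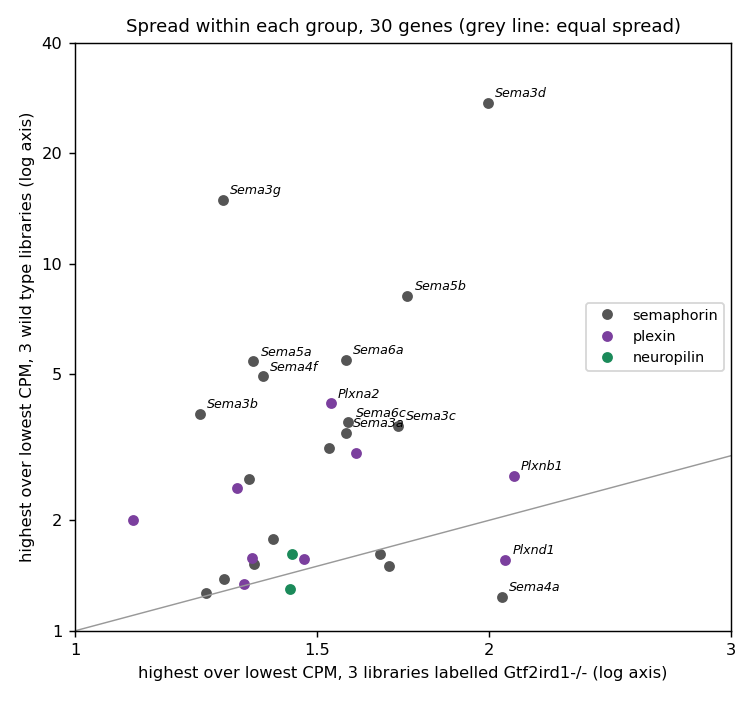
Ratio of the highest to the lowest CPM within the 3 libraries labelled Gtf2ird1-/- (horizontal) and within the 3 wild type libraries (vertical), on log axes, for the 30 genes with reads in every library. Most points lie above the line of equal spread, led by Sema3d and Sema3g, and 5 lie below it, among them Sema4a and Plxnd1.

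The order of the libraries was compared with that of 3 markers, Dcx, the astrocyte water channel gene Aqp4 and the microglial receptor gene Csf1r. Dcx had 250.2, 215 and 172 CPM in the libraries labelled Gtf2ird1-/-, against 74.6, 89.2 and 482 CPM in wild type. Wild type thus held the highest and the 2 lowest libraries. Plxna2, Plxna3 and Sema6c, whose upstream sequences are shown above, stood in exactly this order, as did 1.2% of all tested genes. Plxna2 (chromosome 1, 194618218 to 194816869) had 119, 79.7 and 77.8 CPM in the libraries labelled Gtf2ird1-/-, against 38.2, 43.0 and 159.6 CPM in wild type. Plxna3 (chromosome X, 74329066 to 74344689), a receptor of class 3 semaphorins together with neuropilins, had 117, 82.0 and 73.0 CPM in the libraries labelled Gtf2ird1-/-, against 40.9, 52.3 and 125 CPM in wild type. Sema6c (chromosome 3, 95160457 to 95174024) had 57.4, 41.4 and 36.3 CPM in the libraries labelled Gtf2ird1-/-, against 18.6, 23.9 and 68.8 CPM in wild type. The summed immature neuron markers, which include Dcx itself, and the summed GABAergic markers stood in this order as well. Their genes did not all share it. Sox11, Gad1 and Dlx5 did. Tubb3, Dlx1, Cd24a, Gad2, Slc32a1 and Dlx6 were highest in replicate 5, and Dlx2 ordered replicates 6 and 7 the other way. For Plxna2, Plxna3 and Sema6c the log2 fold changes were 0.20, 0.32 and 0.28, beside -0.02 for Dcx. With CPM over all gene counts the 2 lowest libraries changed places for Dcx itself, and then Sema3f alone of the 31 genes shared its order. The share of all tested genes under that scaling is not given here.

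Any 2 genes can also be compared by how many of the 15 pairs of libraries they order alike, as a description over 6 libraries that share depth and composition. With Dcx, 8 of the 31 genes, or 25.8%, ordered at least 13 of 15 pairs as it did, against 9.4% of all tested genes. Beside the 3 above these were Sema3f with 14, and Sema3c, Sema5b, Sema7a and Plxnc1 with 13. The last 4 shared 1 library order among themselves, which 1.61% of all tested genes had. Plxnc1, the receptor of Sema7a, had 29.8, 25.9 and 22.7 CPM in the libraries labelled Gtf2ird1-/-, against 20.01, 11.7 and 28.7 CPM in wild type. Its order, and that of the other 3, was the reverse of that of Csf1r, a pattern chosen after its values were seen.

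With Aqp4, 2 of 31 genes reached at least 13 pairs, or 6.45%, against 7.53% of all genes. They were Plxnb3 with 14 and Sema6d with 13, and 0 shared its full order, against 1% of all genes. Aqp4 had 123, 58.0 and 76.2 CPM in the libraries labelled Gtf2ird1-/-, against 54.7, 12.9 and 3.60 CPM in wild type, and no library labelled Gtf2ird1-/- was as low as any wild type one. Sema3d, Sema3e, Sema3g, Sema5a, Sema6a, Plxna1 and Plxnb1 reached 12 pairs. With Csf1r, 0 of 31 genes reached 13 pairs, against 8.2% of all genes, and 0 shared its order, against 0.685%. Nrp1 with 12 pairs, Sema4d with 11, and Plxnb2 and Sema4c with 10 were nearest. Csf1r had 6637, 8167 and 8340 CPM in the libraries labelled Gtf2ird1-/-, against 10170, 10850 and 7536 CPM in wild type. In bulk libraries, fewer cells of a type and less RNA per cell cannot be told apart, and the part of the astrocyte, microglial and neuronal shares in the values of the 31 genes was not tested.

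**Figure D4:**
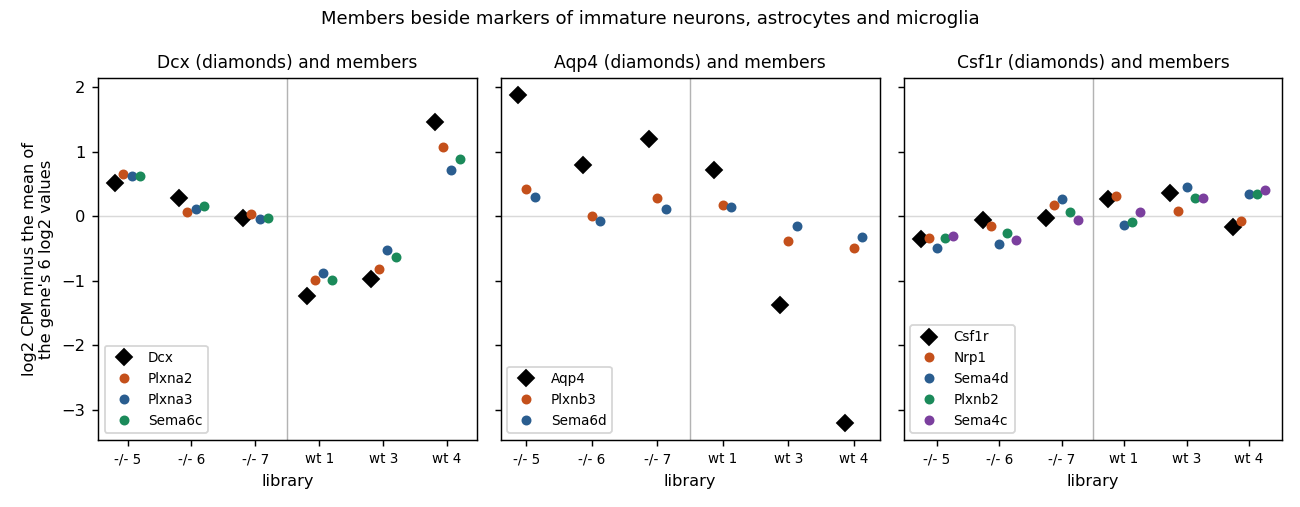
Log2 CPM of each gene minus the mean of its 6 values, by library, for Dcx, Aqp4 and Csf1r (diamonds) and the members nearest to each in library order (circles), with the libraries labelled Gtf2ird1-/- to the left of the wild type libraries. Plxna2, Plxna3 and Sema6c are lowest in wild type replicates 1 and 3 and highest in wild type replicate 4, as Dcx is.

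**Figure D5:**
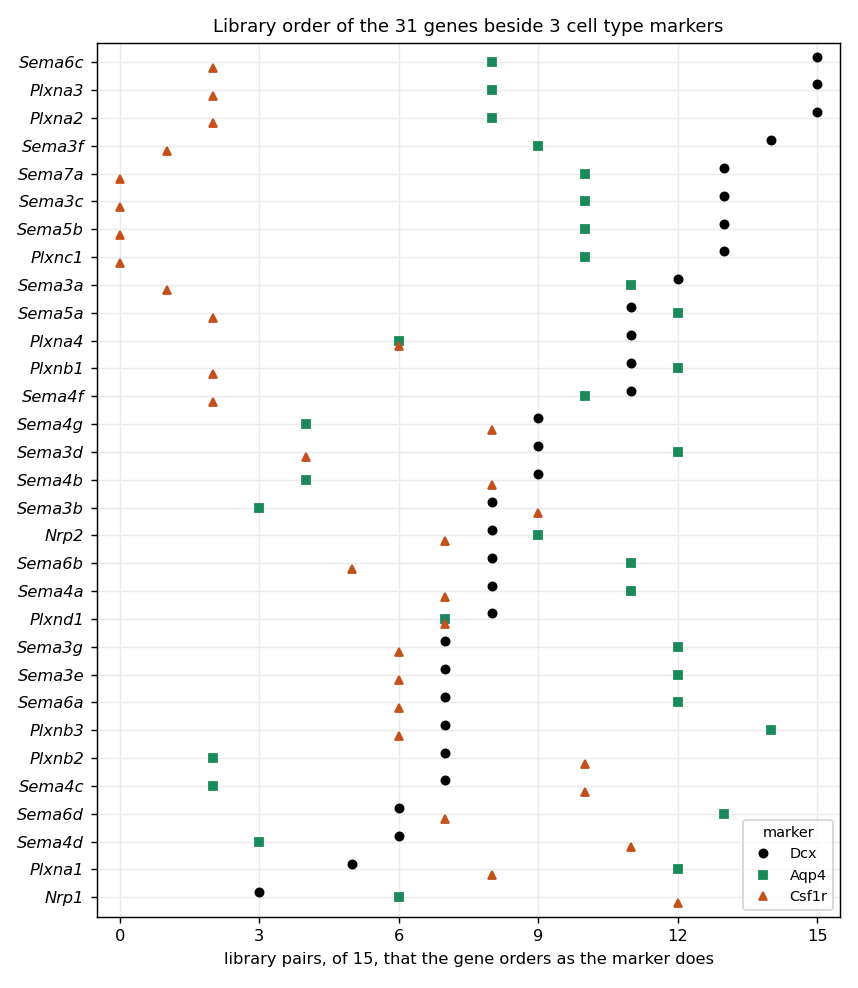
Number of the 15 library pairs that each of the 31 genes orders in the same way as Dcx (circles), Aqp4 (squares) and Csf1r (triangles). Sema6c, Plxna3 and Plxna2 reach 15 with Dcx, Plxnb3 reaches 14 with Aqp4, and none passes 12 with Csf1r.

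Genes that act beside these receptors were counted from a list of 52 co-receptors, kinases, GTPases and cytosolic effectors, of which 50 passed the filter. Timd2, a receptor reported for Sema4a, had 0 reads in all 6 libraries, which allows up to 0.272 CPM in wild type replicate 3. EdgeR and limma-voom called 0 of 50 in either direction and DESeq2 called 1, beside the shares of all genes given above. Of the 50, 31 lay above 0 and 19 below, against 46.3% of all genes above 0, and the median log2 fold change was 0.07. The groups did not overlap for 5, or 10%, against 13% of all genes. At an unadjusted p under 0.05 there were 5, or 10%, against the 7.25% of all genes, all above 0. Vegfa, the growth factor that binds neuropilins and Kdr, had 92.6, 31.1 and 48.4 CPM in the libraries labelled Gtf2ird1-/-, against 22.5, 9.88 and 9.65 CPM in wild type. All 3 libraries labelled Gtf2ird1-/- exceeded wild type, and the log2 fold change was 2.02 ± 0.49 SE (adjusted p = 0.637, edgeR). With DESeq2 the adjusted p of Vegfa was 0.0282. Its library order was that of Aqp4, and the part of astrocyte RNA in it was not tested.

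Nrcam, an adhesion molecule that joins neuropilin complexes, had 133, 76.8 and 77.7 CPM in the libraries labelled Gtf2ird1-/-, against 66.4, 20.8 and 30.02 CPM in wild type, again without overlap. Its log2 fold change was 1.29 ± 0.44 SE (adjusted p = 0.637, edgeR), and without wild type replicate 1 it passed at an edgeR adjusted p of 0.0414. Mical2, an enzyme that oxidises actin, had a log2 fold change of 1.28 and the Ras family gene Mras one of 0.44, each with an edgeR adjusted p of 0.637. Trem2 and Tyrobp, the microglial partners of Plxna1, had log2 fold changes of -0.24 and -0.12. Of the genes that carry the signal inside growing axons, Crmp1 had 108, 78.7 and 59.9 CPM in the libraries labelled Gtf2ird1-/-, against 32.5, 29.4 and 119 CPM in wild type, and Dpysl5 had 78.3, 51.4 and 57.5 CPM in the libraries labelled Gtf2ird1-/-, against 21.5, 29.3 and 129 CPM in wild type. For both, wild type replicate 4 was the highest library and wild type replicates 1 and 3 the lowest, as for Dcx. The related Dpysl2 shared this over a narrower range, from 365 to 505 CPM. Dpysl3 and Dpysl4 were also lowest in wild type replicates 1 and 3, but their highest library was replicate 5. Limk1, a kinase of actin turnover that lies near Gtf2ird1 on chromosome 5, had 42.0, 38.9 and 56.6 CPM in the libraries labelled Gtf2ird1-/-, against 44.6, 62.1 and 58.3 CPM in wild type, at a log2 fold change of -0.26 ± 0.20 SE (adjusted p = 0.699, edgeR).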

How the data were processed

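The authors deposited, for each library, raw read counts by gene, with Trim Galore 0.60, STAR 2.7, HTSeq 1.31 and build mm10 named in the submitters' processing notes. Per the labels' protocols, libraries came from total RNA with a stranded kit. The sources used here do not state the annotation or the strand setting. The 5 summary lines per file, which name no gene, were left out. They held between 40.0% and 58.2% of all reads as overlapping no counted feature and between 1.94% and 14.5% as ambiguous. Of 53379 identifiers, 53274 matched GENCODE M21 (GRCm38, the assembly of mm10), the source of names, 1-based coordinates and exon lengths.

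Groups were compared with edgeR 4.0.16 in R 4.3.3 (TMM, expression filter by group, robust quasi-likelihood F-test, two-sided) over 17221 genes, with Benjamini-Hochberg adjustment over all of them and genotype as the only term. Standard errors were derived from the F statistic. Alternatives used DESeq2 1.42.0, limma-voom (limma 3.58.1), other scalings, no filter, removal of 360 rRNA genes, and each library left out. Scripts were tested on simulated data. Libraries of a group differed by a chi-square of at least 49.9 per degree of freedom, so none was a copy of another, and each counted as 1 sample.

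Named genes followed a rule: the 5 most abundant semaphorins, the 5 most abundant plexins, both neuropilins, members with an unadjusted p under 0.05 or the library order of a marker, and partners with an unadjusted p under 0.05 and at least the 4 smallest p-values. A partner that met the rule is not reported here. Other genes named were chosen after their values were seen. The members and lists were chosen with earlier results of these data known.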

Additional observations from a re-analysis of the deposited data

How the results depend on the processing

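No paired analysis was possible because the groups share no replicate number. No member was called under any of the 13 alternatives. Over all genes, DESeq2 called 14 higher and 6 lower, no filter on low counts gave 4 higher and 1 lower, and leaving out 1 library gave from 1 to 306 higher and from 0 to 15 lower, against 1 and 0. Of the partners, DESeq2 called 1 higher (Vegfa), and leaving out 1 library gave from 0 to 1 higher, the 1 being Nrcam without wild type replicate 1. The median log2 fold change of the 31 genes ran from 0.12 to 0.39 when 1 library was left out. With library totals alone, the median of all genes moved from -0.03 to 0.11, that of the 31 genes was 0.42 with 24 above 0, and Nrp2, Plxnd1 and Sema4b turned positive, at 0.0947, 0.0388 and 0.0148. Signs also turned when 1 library was left out, within ranges of -0.20 to 0.11 for Nrp2, -0.41 to 0.13 for Plxnd1, -0.14 to 1.19 for Plxna2, -0.28 to 0.0258 for Sema4b, -0.36 to 0.0127 for Sema4g, -0.0478 to 1.10 for Sema6c and -0.10 to 0.73 for Sema3f. For Sema3c the range was 0.23 to 1.37 and for Plxna3 0.03 to 0.97. The cause was not tested. With CPM over all gene counts, 1 member in place of 3 had the library order of Dcx, 0 in place of 4 the reverse of that of Csf1r, and 1 in place of 2 had groups that did not overlap, the last pair of alternatives having been added after seeing the data. The shares of all tested genes under that scaling are not given here, so these counts cannot be set beside them. Counts as low as 0 and 2 reads lie behind Sema3e, Sema3d and Sema3g. Intervals and floors cover counting error or the spread between libraries only.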
